A study of Mus musculus with 27 samples.

Results

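Liver genes of the clotting cascade were followed across all 8 groups of a mouse study of liver fibrosis. The 10 genes were F2, F7, F9, F10, F11, F12, Fga, Fgb, Fgg and Serpinc1, taken by name and matched by their Ensembl identifiers from the 55414 genes of the count table. All 10 passed the filter on low counts, a mean of at least 10 read pairs per library, together with 14114 genes in all. The mice were female Balb/c mice, aged 8 weeks at the start, and the experiment lasted 2 weeks. Carbon tetrachloride (CCl4), a solvent toxic to hepatocytes, was injected into the abdomen to cause fibrosis, and mice without fibrosis had olive oil instead. The compound 4-methylumbelliferone (4MU), which lowers the synthesis of hyaluronan, was given by daily gavage at 600 mg/kg. Lipid nanoparticles (LNP) went into the tail vein with an siRNA against hyaluronan synthase 2 (siHAS2-LNP) or against luciferase (siLuc-LNP), a sequence that mice lack, first at 1 mg/kg and then at 0.5 mg/kg. Without CCl4 there were 13 mice: 4 control mice with olive oil and tail vein PBS, and 3 each of 4MU, siLuc-LNP and siHAS2-LNP. With CCl4 there were 14 mice: 2 with CCl4 alone, and 4 each of CCl4 + siHAS2-LNP, CCl4 + siLuc-LNP and CCl4 + 4MU. Per the methods, control mice also had a gavage of the carboxymethyl cellulose carrier of 4MU, and which groups this covers is not stated. The labels name no vehicle for the CCl4 group, and each numbered replicate was taken as 1 mouse. If replicates were not separate animals, the p-values would measure technical spread only.

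Clotting runs through a chain of serine proteases that hepatocytes make and release as inactive precursors. Factor XII starts the contact branch, which passes to factors XI and IX, while factor VII with tissue factor starts the other branch. Both branches activate factor X, which turns prothrombin into thrombin, and thrombin cuts fibrinogen into the fibrin of the clot. Antithrombin, the product of Serpinc1, is a serpin that blocks thrombin and factor Xa. Because the liver makes nearly all of these proteins, their synthesis is a standard measure of liver function.

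The libraries held 7044386 to 29425937 counted read pairs, and the smallest was CCl4 + siHAS2-LNP mouse 4. Hepatocyte markers (Alb, Apoa1, Ttr, Cyp2e1, Cps1) were abundant in all 27 libraries, which was the identity given by the label, a total liver homogenate. Has2, the target of the siRNA, had 0 to 2 counts in each library, so its knockdown could not be checked here. CCl4 + siLuc-LNP mouse 4 and siLuc-LNP mouse 1 correlated least with their own groups (median Spearman rho of 0.959 and 0.968, against a median of 0.981 over all libraries). Calls of members that change without these 2 and the smallest library are given where they occur.

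The members spanned a wide range of expression in control liver. Levels between genes are compared as counts per 1000000 (CPM, scaled by TMM) per kilobase of the canonical transcript, and levels of a single gene as CPM. The fibrinogen chains were highest, with mean levels of 3333 CPM per kilobase for Fgg, 2908 for Fga and 2285 for Fgb, which ranked 16, 22 and 25 among 14081 genes. The ranges of the 3 chains overlapped over the 4 control mice. Prothrombin (F2) followed with 1261 CPM per kilobase (rank 52), then antithrombin (Serpinc1) with 612 (rank 102), F10 with 297 (rank 234) and F12 with 156 (rank 445). The order F2 before Serpinc1 rests on the annotated lengths of 2039 and 5040 bases, since in CPM Serpinc1 was higher. F7 and F9, with 98.5 and 81.8 CPM per kilobase, overlapped, and F11 was lowest with 40.1 (rank 1362). Every other pair of neighbours in this order was apart in the 4 mice. Together the 10 genes took 1.73 to 3.89% of the counts of a library. The fewest counts of any member in any library were 952, for F11, so counting error was small beside the spread between mice.

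Several members are neighbours in the genome (GRCm39, GENCODE vM39). The fibrinogen genes lie side by side on chromosome 3, Fgg at chr3:82915030-82922363 and Fga at chr3:82933383-82940934 on the plus strand, and Fgb at chr3:82947448-82957170 on the minus strand. F7 (chr8:13076002-13085809) ends 1484 bases before F10 (chr8:13087293-13106676), and Proz, the gene of protein Z, starts 3900 bases after F10. F11 (chr8:45693697-45715177) lies 4549 bases from Klkb1, the gene of plasma prekallikrein. F2 (chr2:91455662-91466807), F12 (chr13:55565771-55574974), F9 (chrX:59044824-59076119) and Serpinc1 (chr1:160806146-160833433) have no other member beside them. Serpinc1 overlaps Zbtb37 on the opposite strand by 2941 bases, and the strand setting of the counting is not given in the sources used here. Zbtb37 itself was at 3.84 to 16.6 CPM, against 837 to 3319 CPM for Serpinc1.

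The promoters of the members differed in the letters of known liver and acute-phase elements. RefSeq promoters (GRCm38.p6, matched by symbol for 10 of 10 members) were searched on both strands, over the 250 bases before each start, for an HNF1 half-site (GTTAAT), an HNF4 site (CAAAGTNCA), a C/EBP site (TTGCNNAA) and the type II element through which interleukin-6 acts (CTGGGAA). HNF1, HNF4 and C/EBP are transcription factors that hepatocytes depend on, and interleukin-6 is the main signal of the acute-phase response. The 3 fibrinogen promoters, F9 and F11 held at least 1 of the 4 motifs, and F2, F7, F10, F12 and Serpinc1 held none of them. Of all 32851 promoters in the table, 23.8% held at least 1, with 6.43% for the HNF1 half-site, 1.19% for HNF4, 9.56% for C/EBP and 9.1% for the interleukin-6 element. The sequences of the fibrinogen genes and F9, which held most of the matches, are set beside those of F12 and Serpinc1, whose RNA changed most in CCl4 against control, with the motifs in capitals and no match overlapping another.
Fga: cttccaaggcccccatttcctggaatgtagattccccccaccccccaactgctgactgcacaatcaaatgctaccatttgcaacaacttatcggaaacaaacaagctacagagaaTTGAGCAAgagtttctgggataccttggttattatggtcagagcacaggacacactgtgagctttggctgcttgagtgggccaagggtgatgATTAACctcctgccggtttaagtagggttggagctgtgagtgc
Fgb: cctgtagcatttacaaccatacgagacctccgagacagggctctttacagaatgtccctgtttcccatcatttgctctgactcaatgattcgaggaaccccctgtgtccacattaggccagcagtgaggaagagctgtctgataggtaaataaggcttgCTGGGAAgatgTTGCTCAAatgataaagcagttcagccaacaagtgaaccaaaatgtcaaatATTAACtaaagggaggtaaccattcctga
Fgg: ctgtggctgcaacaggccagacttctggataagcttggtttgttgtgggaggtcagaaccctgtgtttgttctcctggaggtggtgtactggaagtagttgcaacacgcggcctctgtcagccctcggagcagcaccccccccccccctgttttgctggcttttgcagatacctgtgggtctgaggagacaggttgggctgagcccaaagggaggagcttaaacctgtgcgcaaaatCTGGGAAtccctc
F9: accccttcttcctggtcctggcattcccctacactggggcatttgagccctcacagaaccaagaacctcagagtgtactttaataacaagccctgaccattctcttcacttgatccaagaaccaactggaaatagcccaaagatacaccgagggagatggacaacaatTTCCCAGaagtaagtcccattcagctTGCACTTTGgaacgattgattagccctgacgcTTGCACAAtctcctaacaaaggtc
F12: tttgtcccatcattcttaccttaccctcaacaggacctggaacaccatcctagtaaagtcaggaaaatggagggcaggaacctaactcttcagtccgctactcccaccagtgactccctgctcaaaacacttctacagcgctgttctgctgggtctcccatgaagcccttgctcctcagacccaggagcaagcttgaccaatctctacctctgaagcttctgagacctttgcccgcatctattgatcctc
Serpinc1: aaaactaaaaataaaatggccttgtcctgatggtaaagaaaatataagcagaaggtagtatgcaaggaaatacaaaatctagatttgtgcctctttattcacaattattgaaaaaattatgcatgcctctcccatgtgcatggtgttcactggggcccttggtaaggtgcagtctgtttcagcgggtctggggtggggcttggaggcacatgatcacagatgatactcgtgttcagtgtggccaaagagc
In these windows the Fga promoter (chr3:83025903-83026152) has a C/EBP match 135 bases and an HNF1 half-site 43 bases before the start. The Fgb promoter (chr3:83049864-83050113, minus strand) has the interleukin-6 element at 91, C/EBP at 80 and the HNF1 half-site at 29 bases. The Fgg promoter (chr3:83007474-83007723) has the interleukin-6 element at 13 bases. The F9 promoter (chrX:59999214-59999463) has that element at 82, HNF4 at 56 and C/EBP at 24 bases, and F11 has C/EBP at 17 bases. The windows of F12 (chr13:55426805-55427054, minus strand) and Serpinc1 (chr1:160978333-160978582) have no match, which says only that these letters are absent from these windows.

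CCl4 lowered 6 of the 10 genes when its effect was averaged over the 4 arms (no treatment, 4MU, siLuc-LNP and siHAS2-LNP), and raised none. The share of all tested genes called lower in this comparison was 25.6%, and 26.3% were called higher. In order of size these were Serpinc1, F7, F12, F2, F9 and F10, so antithrombin, the initiators of both branches, prothrombin and factors IX and X were lower. F11 and the 3 fibrinogen genes did not pass the test. DESeq2 and limma-voom also called 6 (26 and 25.7% of all genes lower). With scaling by library totals in place of TMM, which moved the median log2 fold change of all genes from -0.015 to 0.16, 4 were lower and 1, F11, was higher, where 13.1% of all genes were called lower and 38.2% higher. The median log2 fold change was -0.31 over the members and -0.015 over all tested genes. In bulk liver, fewer hepatocytes and less RNA per hepatocyte cannot be told apart. The summed level of the 5 hepatocyte markers, which holds the plasma proteins albumin and transthyretin, was 72220 to 175413 CPM with CCl4 and 128987 to 200135 CPM without, and its part in these results was not tested. Of these 5 markers 3 were called lower and 1 higher, with a median of -0.31. Albumin made up most of the sum, with a mean of 147278 CPM in control, where the sum was 163710 to 200135 CPM. Its gene Alb was itself called lower in the averaged CCl4 effect, at -0.31 (edgeR adjusted p = 0.0254).

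**Figure D1:**
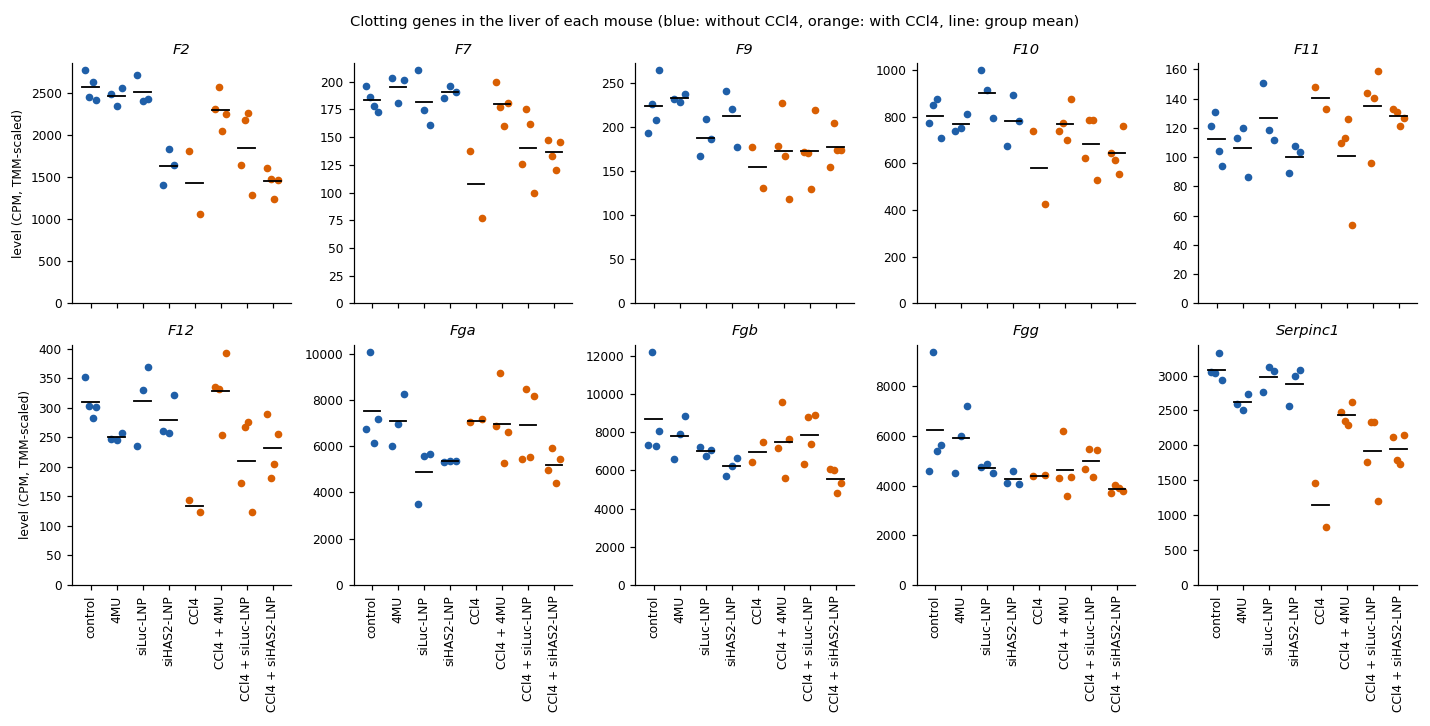
Level of each gene in CPM (vertical axis, starting at 0) in the 8 groups (horizontal axis), with 1 point per mouse and a line at the group mean. Serpinc1 is at 837 to 2618 CPM in the mice with CCl4 and at 2501 to 3319 CPM in those without, and Fga covers about the same span in both.

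Serpinc1 separated the mice with and without CCl4 most completely. Control mice had 3046, 3037, 3319 and 2939.9 CPM of Serpinc1, 4MU mice 2598, 2501 and 2741, siLuc-LNP mice 2768, 3122 and 3064, and siHAS2-LNP mice 2569, 2997 and 3081. With CCl4 alone Serpinc1 had 1465 and 837 CPM, with CCl4 + 4MU 2479, 2343, 2290.2 and 2618, with CCl4 + siLuc-LNP 1767, 2334, 2340.4 and 1205, and with CCl4 + siHAS2-LNP 2117, 1790.2, 1735 and 2144. Of the 14 mice with CCl4, 13 were below all 13 without, and the other one, CCl4 + 4MU mouse 4, was above 3 of them. Averaged over the arms, Serpinc1 fell by 0.68 on the log2 scale (SE, the standard error, 0.101, adjusted p = 4.43e-06, edgeR quasi-likelihood test), which is a change of -37.7%. In CCl4 against control mice the change of Serpinc1 was -1.42 (SE 0.235, adjusted p = 5.62e-05). As a share of the summed hepatocyte markers of the same library, Serpinc1 was 1.15 to 1.82% with CCl4 and 1.47 to 2.14% without. All 14 mice with CCl4 were below the median of the others in this share and 7 were below all of them, the most of any member. For the same share, 11 of the 14 were below the median for F2 and for F7, 7 for F12, 6 for F9 and 5 for F10. The share of F9 was below all of the others in 4 mice with CCl4, that of F12 also in 4, and that of F10 in 0. The sum is mostly albumin, whose gene was itself called lower, and the part of hepatocyte number in these shares was not tested.

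F12, the gene of the contact-phase initiator, was lowest in the mice with CCl4 alone. Its levels were 352, 302, 282 and 301 CPM in control, 246, 246 and 258 in 4MU, 235, 329.6 and 369.8 in siLuc-LNP, and 261, 257 and 321 in siHAS2-LNP mice. With CCl4 alone F12 had 144 and 124 CPM, with CCl4 + 4MU 336, 332, 254 and 394, with CCl4 + siLuc-LNP 172, 268, 275 and 124, and with CCl4 + siHAS2-LNP 289, 181, 205 and 255. Both CCl4 mice were below every mouse without CCl4, whereas the CCl4 + 4MU mice covered the range of controls. F12 differed by -1.21 between CCl4 and control (SE 0.265, adjusted p = 0.00109) and by -0.41 averaged over the arms (SE 0.115, adjusted p = 0.00420). Within the 4MU arm its CCl4 difference went the other way, at 0.40, and did not pass the test (adjusted p = 0.207). When all 14 mice with CCl4 were set against all 13 others without regard to arm, the change of F12 was -0.27 with an adjusted p of 0.137.

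F11, the next enzyme of the contact branch, was not lower with CCl4. It ranged over 86.1 to 150.5 CPM without CCl4 (median 112) and 53.3 to 159 CPM with CCl4 (median 129), and 11 of the 14 mice with CCl4 were above the median of the others. The sets overlapped, and the averaged log2 fold change of 0.17 (SE 0.109, adjusted p = 0.192) did not pass the test. Without CCl4 + 4MU mouse 4, the lowest for F11 of all mice, it was 0.23 with an adjusted p of 0.0291. Scaled by library totals it was 0.35 (adjusted p = 0.0179). Per length, the ratio of F11 to F12 was 0.258 ± 0.036 (SD, n = 4) in control, 0.745 ± 0.021 (n = 2) in CCl4 and 0.230 ± 0.105 (n = 4) in CCl4 + 4MU mice. It was 0.527 ± 0.288 (n = 4) in CCl4 + siLuc-LNP and 0.402 ± 0.083 (n = 4) in CCl4 + siHAS2-LNP mice.

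F9, on the X chromosome and the gene of the factor that is lacking in haemophilia B, was lower with CCl4 in the averaged comparison. It ranged over 168 to 266 CPM without CCl4 (median 220.3) and 118 to 228 CPM with CCl4 (median 173). Of the mice with CCl4, 13 of 14 were below the median of the others and 4 were below all of them, so the sets overlapped. The averaged log2 fold change of F9 was -0.34 (SE 0.0981, adjusted p = 0.00599). Scaled by library totals it was -0.16 (adjusted p = 0.259).

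F7, whose protein starts the tissue factor branch and has the shortest half-life of the clotting factors, ran close to Serpinc1 across libraries. Its levels were 196, 186, 178 and 172 CPM in control, 203, 181 and 202 in 4MU, 210.2, 174 and 161 in siLuc-LNP, and 185, 196 and 190.5 in siHAS2-LNP mice. With CCl4 alone F7 had 137 and 77.2 CPM, with CCl4 + 4MU 200.1, 178, 160.0 and 181, with CCl4 + siLuc-LNP 125, 175, 162 and 99.7, and with CCl4 + siHAS2-LNP 148, 133, 121 and 146. All 4 CCl4 + siHAS2-LNP mice and both CCl4 mice were below every mouse without CCl4, and the CCl4 + 4MU mice, at 160.0 to 200.1 CPM, overlapped the mice without CCl4. The averaged log2 fold change of F7 was -0.43 (SE 0.0909, adjusted p = 0.000311), and that of CCl4 against control was -0.77 (SE 0.205, adjusted p = 0.00543).

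F10, the gene of the factor at which both branches meet, ranged over 676 to 1001 CPM without CCl4 (median 797) and 426 to 874 CPM with CCl4 (median 718). In 6 of the 14 mice with CCl4 it was below every mouse without. Its averaged log2 fold change was -0.29 (SE 0.0917, adjusted p = 0.0112). This call was lost without CCl4 mouse 2 (-0.20, adjusted p = 0.0764) and with scaling by library totals (-0.13, adjusted p = 0.169).

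F2, the gene of prothrombin, was called lower in CCl4 against control. Its levels were also low in both groups with siHAS2-LNP, but it was not called against siLuc-LNP (adjusted p = 0.283 without CCl4 and 0.316 with it). Its levels were 2775, 2454, 2635 and 2424 CPM in control, 2497, 2349.7 and 2567 in 4MU, 2713, 2405 and 2428 in siLuc-LNP, and 1411, 1841 and 1646 in siHAS2-LNP mice. With CCl4 alone F2 had 1813 and 1063 CPM, with CCl4 + 4MU 2312, 2579, 2048 and 2249, with CCl4 + siLuc-LNP 1645, 2189, 2264 and 1287, and with CCl4 + siHAS2-LNP 1613, 1485, 1243 and 1465. The siHAS2-LNP mice without CCl4 were below all 10 other mice without CCl4, and the CCl4 + siHAS2-LNP mice were below all of these as well. The averaged CCl4 effect on F2 was -0.39 (SE 0.0968, adjusted p = 0.00165), and CCl4 against control gave -0.84 (SE 0.220, adjusted p = 0.00477).

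The fibrinogen genes, which encode the alpha, beta and gamma chains that are assembled in equal numbers into a single protein, did not pass the test. Fga ranged over 3489.7 to 10061 CPM without CCl4 (median 6024) and 4406 to 9151 with CCl4 (median 6268), with 7 of the 14 mice with CCl4 on each side of the median of the others. Fgb ranged over 5725 to 12209 CPM without CCl4 (median 7197) and 4792 to 9559 with CCl4 (median 6806). Fgg ranged over 4066 to 9395 CPM without CCl4 (median 4748) and 3565 to 6216 with CCl4 (median 4356), and 11 of the 14 mice with CCl4 were below the median of the others. The averaged log2 fold changes were 0.086 for Fga (SE 0.116, adjusted p = 0.554), -0.094 for Fgb (SE 0.104, adjusted p = 0.464) and -0.23 for Fgg (SE 0.110, adjusted p = 0.0819). Fgg passed without control mouse 1 (-0.26, adjusted p = 0.0450), without 4MU mouse 1 (-0.26, adjusted p = 0.0486) or without CCl4 + 4MU mouse 2 (-0.28, adjusted p = 0.0321). The sign of Fgb turned to 0.084 with scaling by library totals. Control mouse 2 was the highest of all 27 for each chain, with 10061, 12209 and 9395 CPM. Per length, Fga stood to Fgg as 0.866 ± 0.127 (SD, n = 13) without CCl4 and 1.05 ± 0.115 (n = 14) with CCl4, and the ranges of 0.534 to 1.07 and 0.819 to 1.17 overlapped.

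Within the 4 arms the CCl4 effect called different numbers of members. Against its control without CCl4, 4 members passed the test in the untreated arm, F2, F7, F12 and Serpinc1, with the values above, and all 4 were lower, where 16.1% of all tested genes were called lower. Without CCl4 mouse 2 the calls of F2 (-0.48, adjusted p = 0.212) and F7 (-0.39, adjusted p = 0.268) were lost. Scaled by library totals, F2, F12 and Serpinc1 were lower and F11 was higher (0.72, edgeR adjusted p = 0.0273). Shares of all genes in each direction under that scaling were computed for the averaged effect alone, so calls under it within the arms are only listed. The 2 CCl4 mice lay below the 4 controls without overlap for these 4 genes and for F9 and Fgg, and above them for F11. The share of all genes without overlap was not computed for this or any other comparison, so such separations are only a description. Under 4MU no member was called (23.7% of all genes were called in either direction), and F9 had the smallest adjusted p (log2 fold change -0.43, adjusted p = 0.101), which passed without CCl4 + 4MU mouse 2 (-0.60, adjusted p = 0.0268). Under siLuc-LNP only Serpinc1 was called, lower by -0.64 (SE 0.193, adjusted p = 0.0167), where 11.2% of genes were called lower. That call was lost without CCl4 + siLuc-LNP mouse 4 (-0.45, adjusted p = 0.0622), without siLuc-LNP mouse 2 (-0.61, adjusted p = 0.0551) and without the smallest library and the 2 that correlated least, left out together (-0.50, adjusted p = 0.0829). The number of members called was 2 without siLuc-LNP mouse 1 or without CCl4 + siLuc-LNP mouse 2, with 2396 and 3378 genes called over all. It was 3 without mouse 3 of the latter group, with 3707 genes. Scaled by library totals, F12 and Serpinc1 were lower and Fga was higher (0.63, edgeR adjusted p = 0.0474), with 3168 genes called over all in either direction. Under siHAS2-LNP no member was called (12.8% of all genes in either direction), with Serpinc1 nearest at -0.57 (adjusted p = 0.0530). Without the smallest library and the 2 libraries that correlated least, 2 members passed there, with Serpinc1 at -0.62 (adjusted p = 0.0180) and 2068 genes called over all.

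**Figure D2:**
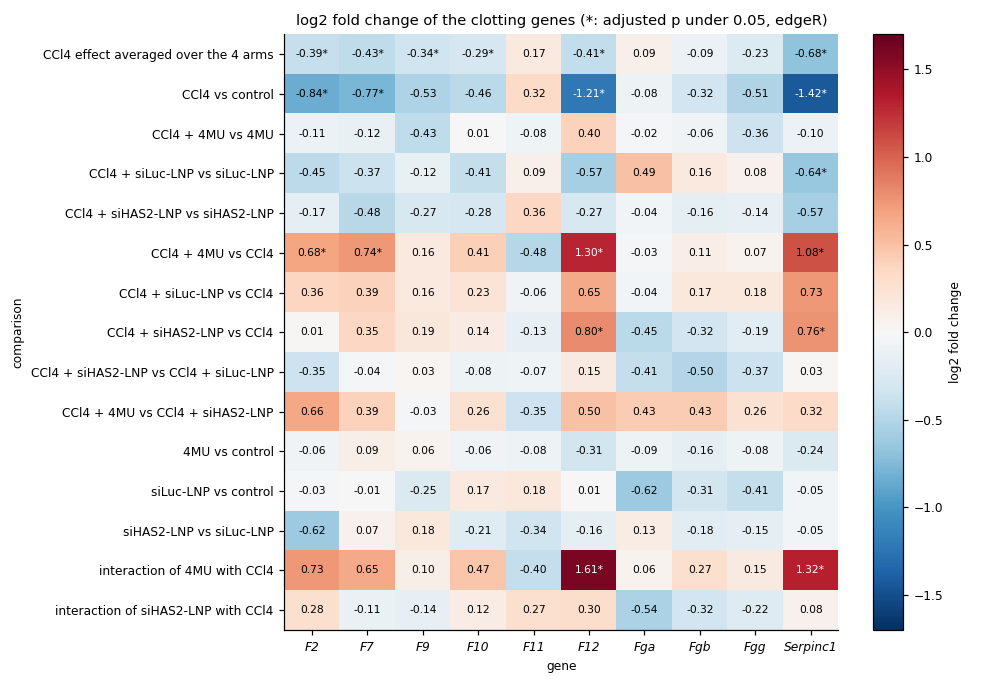
log2 fold change of each gene (columns) in the 15 comparisons (rows), with the value in each cell and an asterisk where edgeR's adjusted p was under 0.05. Lower values are blue and higher values red, and the averaged CCl4 effect has 6 asterisks, all on lower values.

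The difference between arms was tested for 4MU by its interaction with CCl4. The CCl4 effect under 4MU was higher than that without treatment by 1.61 for F12 (SE 0.344, adjusted p = 0.0139) and by 1.32 for Serpinc1 (SE 0.300, adjusted p = 0.0200) on the log2 scale. These 2 of the 10 members were called, against 2.72% of all genes called higher. Both calls were lost without CCl4 mouse 2, in a fit that leaves a single CCl4 mouse. The values there were 1.48 for F12, near its value with both mice, and 0.95 for Serpinc1. The interaction of siHAS2-LNP with CCl4, taken against siLuc-LNP, called no member (0.0354% of all genes), with Fga nearest at -0.54 (adjusted p = 0.537).

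Among the mice with CCl4, those with 4MU had higher levels of 4 members than those without treatment. In CCl4 + 4MU against CCl4 the log2 fold changes were 1.30 for F12 (SE 0.266, adjusted p = 0.00233), 1.08 for Serpinc1 (SE 0.231, adjusted p = 0.00318), 0.74 for F7 (SE 0.205, adjusted p = 0.0149) and 0.68 for F2 (SE 0.218, adjusted p = 0.0330). These 4 of 10 stand against 8.28% of all genes called higher, and the 4 treated mice did not overlap the 2 CCl4 mice for any of them. The 2 CCl4 mice are the same as in the comparison with control, so both comparisons share their levels. CCl4 mouse 2 had the lower level of each of these 4 genes, and without it no member passed, with 184 genes called over all. The log2 fold changes without CCl4 mouse 2 were 1.17 for F12 (adjusted p = 0.0818), 0.70 for Serpinc1 (adjusted p = 0.156), 0.36 for F7 (adjusted p = 0.407) and 0.31 for F2 (adjusted p = 0.521), so that of F12 stayed near its value with both mice and those of the other 3 were smaller by over 1.5 times. The call of F2 was also lost without CCl4 + 4MU mouse 1 (0.67, adjusted p = 0.0556), mouse 2 (0.58, adjusted p = 0.0804) or mouse 4 (0.69, adjusted p = 0.0566), at about the same fold. Scaled by library totals, F12 and Serpinc1 were higher and F11 was lower (-0.80, edgeR adjusted p = 0.0240). The share of all genes called in each direction under that scaling was not computed here, so nothing about the members is read from these calls. The summed hepatocyte markers were 72220 and 127185 CPM in the 2 CCl4 mice and 146892 to 175413 CPM in the CCl4 + 4MU mice, and their part in the difference was not tested. As a share of those markers, F12 was 0.113 and 0.171% in the CCl4 mice and 0.154 to 0.230% in the CCl4 + 4MU mice, which overlapped. The share of Serpinc1 was 1.15 and 1.16% in CCl4 and 1.34 to 1.69% in CCl4 + 4MU mice, without overlap.

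The nanoparticle groups gave fewer calls against CCl4 alone. CCl4 + siHAS2-LNP against CCl4 gave 2 members higher, F12 by 0.80 (SE 0.260, adjusted p = 0.0405) and Serpinc1 by 0.76 (SE 0.227, adjusted p = 0.0277), against 7.11% of all genes called higher. Both calls were lost without CCl4 mouse 2 (0.66, adjusted p = 0.336, and 0.38, adjusted p = 0.497), without CCl4 + siHAS2-LNP mouse 1 (0.68, adjusted p = 0.0923, and 0.72, adjusted p = 0.0513) and without mouse 4 of that group (0.75, adjusted p = 0.0744, and 0.70, adjusted p = 0.0570). Without mouse 3 of that group the call of F12 was lost (0.85, adjusted p = 0.0511), as it was without CCl4 mouse 1 (0.90, adjusted p = 0.0824). CCl4 + siLuc-LNP against CCl4 gave none (0.248% of all genes), with Serpinc1 nearest at 0.73 (adjusted p = 0.135), which passed without CCl4 mouse 1 (1.19, adjusted p = 0.0343). Without CCl4 + siLuc-LNP mouse 4, which correlated least with its group, 2 members passed, and Serpinc1 was at 0.90 (adjusted p = 0.00674). Over all genes 1076 were called there, against 35 with every mouse. The number of members was also 2 with siLuc-LNP mouse 1 and the smallest library left out as well (0.90 for Serpinc1, adjusted p = 0.00757), with 1198 genes called over all. The siRNA against hyaluronan synthase 2 was compared with its luciferase counterpart in mice with CCl4, and no member was called (1.09% of all genes). Fgb had the smallest adjusted p there, at -0.50 (edgeR adjusted p = 0.169). The CCl4 + siHAS2-LNP mice were below all CCl4 + siLuc-LNP mice for Fgb and Fgg, which is only a description. CCl4 + 4MU against CCl4 + siHAS2-LNP called none either (1.22% of all genes), with F2 nearest at 0.66 (adjusted p = 0.0571). F2 passed there without CCl4 + siHAS2-LNP mouse 1 (0.72, adjusted p = 0.0446), and narrowly without the smallest library and the 2 that correlated least (0.66, adjusted p = 0.049997).

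In mice without CCl4 no member was called in any comparison. In 4MU against control 0.00709% of all genes were called, and F12 was nearest, at -0.31 (edgeR adjusted p = 0.929). All 3 4MU mice were below all 4 controls for F12 and Serpinc1. Such separations are only a description, since the share of all genes without overlap was not computed. In siLuc-LNP against control 0.213% were called, and Fga was nearest, at -0.62 (adjusted p = 0.515), with all 3 siLuc-LNP mice below the controls. In siHAS2-LNP against siLuc-LNP 0.0425% were called, and F2 was nearest, at -0.62 (adjusted p = 0.283). Averaged over the mice with and without CCl4, a comparison chosen after the levels of F2 were seen, siHAS2-LNP against siLuc-LNP changed F2 by -0.49 (SE 0.132, adjusted p = 0.0984). No member passed in it, against 0.255% of all genes. Over the comparisons with no member called by edgeR, 0 to 4 members had an unadjusted p under 0.05. The largest number, 4, was in CCl4 + 4MU against CCl4 + siHAS2-LNP. Of these comparisons DESeq2 called 2 members in CCl4 + siHAS2-LNP against siHAS2-LNP, 1 in CCl4 + siLuc-LNP against CCl4 and 1 in CCl4 + 4MU against CCl4 + siHAS2-LNP, where it called 15.6, 2.18 and 3.59% of all genes, and limma-voom called none. The comparison averaged over CCl4 was run with edgeR alone.

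Prothrombin and antithrombin RNA were not in the same proportion in all groups. Per length, F2 stood to Serpinc1 as 2.06 ± 0.130 (SD, n = 4) in control, 2.34 ± 0.034 (n = 3) in 4MU, 2.09 ± 0.285 (n = 3) in siLuc-LNP and 1.40 ± 0.105 (n = 3) in siHAS2-LNP mice. With CCl4 the ratio of F2 to Serpinc1 was 3.10 ± 0.056 (n = 2) alone, 2.34 ± 0.265 (n = 4) with 4MU, 2.41 ± 0.156 (n = 4) with siLuc-LNP and 1.85 ± 0.156 (n = 4) with siHAS2-LNP. The 2 CCl4 mice had the highest ratios of all groups and the 3 siHAS2-LNP mice the lowest, and no other mouse reached either range.

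**Figure D3:**
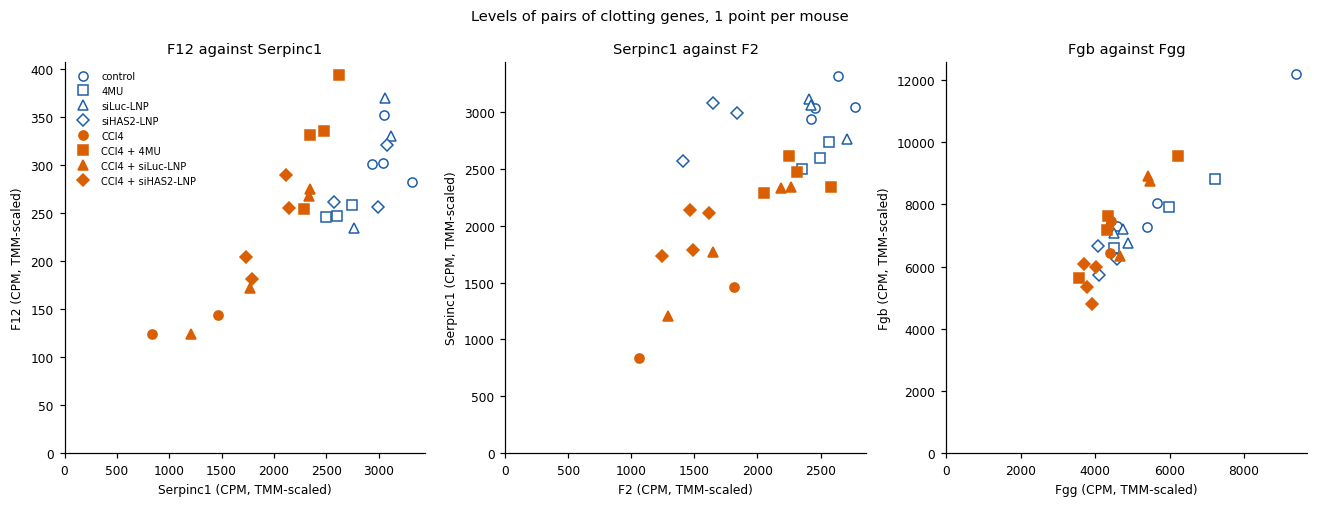
Levels in CPM of F12 against Serpinc1, Serpinc1 against F2 and Fgb against Fgg, with 1 point per mouse, open symbols without CCl4 and filled symbols with CCl4 (linear axes from 0). F12 and Serpinc1 run together, the siHAS2-LNP mice have 1411 to 1841 CPM of F2 at the Serpinc1 level of other mice without CCl4, and control mouse 2 has 12209 CPM of Fgb and 9395 CPM of Fgg.

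Across the 27 libraries the members did not move as a single block. The median Pearson r of log2 CPM over the 45 pairs was 0.238. It was highest for F7 with Serpinc1 (0.913), Fgb with Fgg (0.884), F12 with Serpinc1 (0.867) and the neighbours F7 and F10 (0.865), and lowest for F11 with F12 (-0.573). For deviations from the group means, in which group differences are removed, F2 with F7 was at 0.911, Fgb with Fgg at 0.862 and F7 with F10 at 0.851, with a median of 0.0139 over all pairs. These values share libraries, depth and scaling, and are a description. The genes outside the list most like the mean of the members were Cd302 (r = 0.885 over 27 libraries), a lectin receptor, Hebp1 (0.834), a heme-binding protein, Pigr (0.832), which carries immunoglobulin A into bile, Aldh6a1 (0.827), of valine breakdown, and Slc27a5 (0.822), which activates bile acids. Their averaged CCl4 effects were -0.48, -0.72, -0.96, -0.74 and -0.93 on the log2 scale. They were picked for likeness to the members over these same libraries, so a shared direction was largely set by that choice.

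Other genes of haemostasis did not share a single direction. The counts of each list stand beside 25.6% of all genes called lower and 26.3% called higher in the averaged CCl4 effect, and nothing is read from a count near them. Of 7 other procoagulants and cofactors, 3 were lower and 1 higher in the averaged CCl4 effect, with a median of -0.17. Klkb1, whose product activates factor XII and which lies beside F11, fell by 0.99 (SE 0.123, adjusted p = 3.58e-07), and Kng1, the high molecular weight kininogen that carries it, by 0.35 (adjusted p = 0.00652). Kng1 and Kng2 are near copies, so the split of their reads is uncertain. F8, the cofactor of factor IX, which the endothelium makes, rose by 0.66 (SE 0.169, adjusted p = 0.00211) from a low level. Of the 5 endothelial markers 3 were higher and 1 lower, with a median of 0.33, and their summed level was 46.6 to 93.3 CPM with CCl4 and 46.7 to 88.5 CPM without. The part of endothelial cells in the values of F8 and of Procr was not tested.

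Of 9 other natural anticoagulants tested out of 10, 5 were higher and 2 lower, with a median of 0.23. Of the higher ones, Thbd lost its call without CCl4 mouse 2 (0.40, from 0.72). Serpind1 lost its call without CCl4 mouse 1 (0.14, from 0.23), 4MU mouse 2 (0.22) or siLuc-LNP mouse 1 (0.21). Serping1, the inhibitor of factor XIIa and kallikrein, fell by 0.81 (SE 0.0970, adjusted p = 1.99e-07). Procr, the receptor of protein C on endothelium, rose by 0.79 (SE 0.237, adjusted p = 0.00723), and Tfpi, the inhibitor of the tissue factor complex, by 0.78 (SE 0.142, adjusted p = 6.85e-05).

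Factors F2, F7, F9 and F10 need vitamin K for the carboxylation of glutamate before release. Of 8 genes of this cycle and of export, 1 was higher and 1 lower, with a median of -0.045. Vkorc1, which recycles the vitamin and is the target of warfarin, fell by 0.52 (SE 0.154, adjusted p = 0.00649), and Ggcx, the carboxylase, rose by 0.25 (SE 0.0770, adjusted p = 0.00894). Of 5 tested genes out of 8 that other cells supply, 3 were higher and none lower, with a median of 0.95. These were Thbs1, thrombospondin (1.36, adjusted p = 0.000852), F2r, the thrombin receptor (1.33, adjusted p = 5.85e-09), and F13a1, the chain of factor XIII that macrophages and platelets make (0.95, adjusted p = 0.00789). The call of F13a1 was lost without CCl4 mouse 2 (0.55, adjusted p = 0.140). Of the 5 Kupffer cell and macrophage markers 1 was higher and 3 were lower, with a median of -0.51, and their summed level was 113 to 381 CPM with CCl4 and 152 to 459.6 CPM without. The summed stellate and fibroblast markers were 71.2 to 359 CPM with CCl4 and 25.4 to 52.2 CPM without, duct markers 108 to 692 and 29.4 to 77.0 CPM, and platelet markers 4.05 to 7.98 and 3.78 to 15.7 CPM. Platelet marker Gp1bb was at 0 in all 27 libraries, and the part of these cells in the results was not tested.

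**Figure D4:**
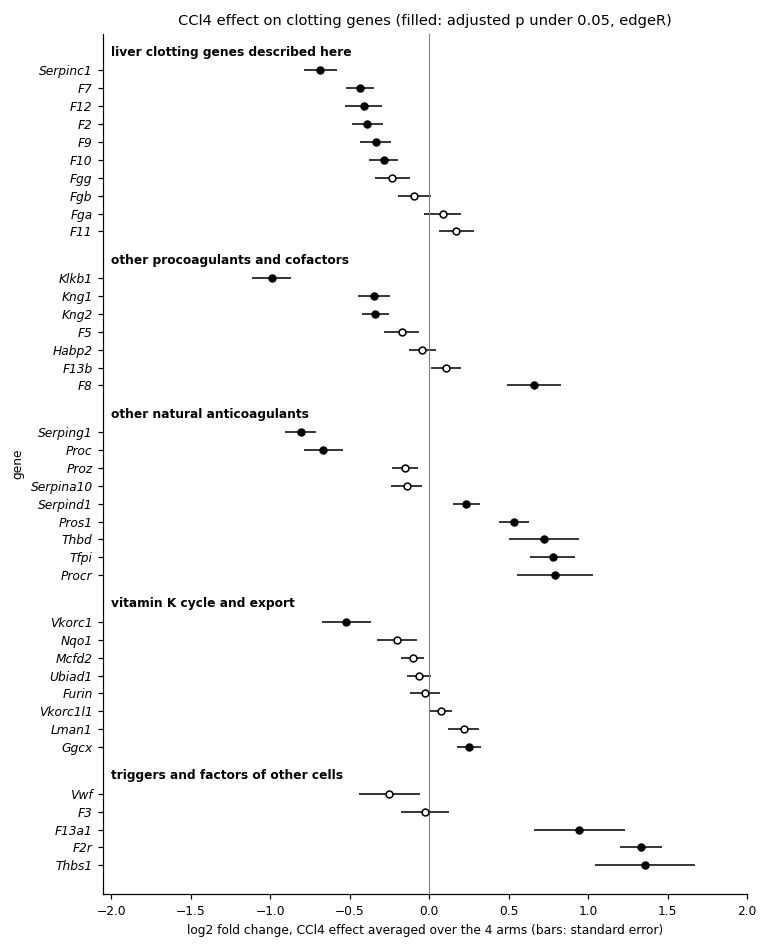
log2 fold change of the averaged CCl4 effect (horizontal axis, bars are standard errors) for the 10 genes and 4 lists of other haemostasis genes (vertical axis), with filled points where edgeR's adjusted p was under 0.05. Serpinc1, F7, F12, F2, F9 and F10 are filled and lower, Klkb1 is lowest at -0.99 and Thbs1 highest at 1.36.

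Regulators, acute-phase genes and other plasma proteins were set beside the members. Of 16 regulators of the factor genes, 4 were lower, about the share over all genes (25.6%), and none higher, with a median of -0.027. Cebpa, the main C/EBP factor of resting hepatocytes, fell by 0.65 (SE 0.139, adjusted p = 0.000372), Nr0b2, a corepressor induced by bile acids, by 0.64 (SE 0.190, adjusted p = 0.00651), and Foxa3, a pioneer factor, by 0.37 (SE 0.115, adjusted p = 0.00932). Hnf4a, named after its value was seen, was at -0.0031 (SE 0.0913, adjusted p = 0.982). Of 12 acute-phase genes, 2 were higher and 5 lower, with a median of -0.43, and Saa3 was at 1.98 (adjusted p = 7.70e-07), Saa2 at -1.96 (adjusted p = 0.00304) and Saa1 at -1.57 (adjusted p = 0.00637). The last 2 values rested largely on siHAS2-LNP mouse 2, with 1908 CPM of Saa2 and 2562 CPM of Saa1, and without it they were -1.01 for Saa2 (adjusted p = 0.0325) and -0.69 for Saa1 (adjusted p = 0.0869). Saa1 and Saa2 are near copies, so the split of their reads is uncertain. Of 9 other plasma proteins tested, 6 were lower and 1 higher, with a median of -0.27, led by Apoh (-0.81, adjusted p = 5.88e-06), Hrg (-0.46, adjusted p = 0.00732) and Ttr (-0.39, adjusted p = 0.0224). The calls of Ttr (-0.30), Alb (-0.22) and Ambp (-0.22) were lost without CCl4 mouse 2. That of Ambp was also lost without any of several other mice, such as control mouse 2 (-0.23) or siLuc-LNP mouse 1 (-0.21). That of Ahsg, the higher one, was lost without CCl4 mouse 1 (0.19), 4MU mouse 3 (0.23) or siLuc-LNP mouse 1 (0.22). The fibrinogen genes, which are acute-phase genes too, were at -0.23 to 0.086.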

How the data were processed

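Total liver RNA from 27 mice was sequenced in pairs of reads. Per the labels and the methods, the authors trimmed reads with Trimmomatic 0.39, aligned them to GRCm39 with HISAT2 and counted them with featureCounts; the version of both and the strand setting are not given in the sources used here. The deposited table gives whole-number counts for each gene, which the authors had neither normalised nor filtered. Reads shared by near copies or overlapping genes can be lost or miscounted.

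Genes averaging 10 or more counts were kept and scaled by TMM, all 8 groups entered 1 fit with no covariate, and contrasts were tested with edgeR 4.0.16 (R 4.3.3) quasi-likelihood tests, adjusted by Benjamini-Hochberg over all 14114 genes at 0.05. All 27 columns were used. The averaged CCl4 effect is the mean of the 4 differences between groups with and without CCl4. Symbols, lengths and positions are from GENCODE vM39, and promoters from RefSeq (GRCm38.p6). Tests were tried on simulated data first. Python 3.11.15 with pandas 2.3.3, scipy 1.17.1 and matplotlib 3.10.9 gave levels and figures. Totals of 7044386 to 29425937 counts and 2 CCl4 mice limit the precision.

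Named genes were all members, in other comparisons those past the threshold or nearest to it, and of each list up to 3 past the threshold with the largest averaged effect. Hnf4a, F12 under 4MU, Alb, and list genes whose calls were lost with a mouse left out were named after their values were seen. The members, lists and tests were chosen with earlier results of these data known, and the motifs after the levels were seen. Alternatives were DESeq2 1.42.0, limma-voom 3.58.1, other scalings and filters, only the compared groups, the replicate number as a block, 14 against 13 mice, a fold limit, each mouse left out, and, added after seeing the data, 3 libraries left out together and each mouse left out for the other lists.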

Additional observations from a re-analysis of the deposited data

Results flagged for a closer look

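In control liver, Fgb of mouse 2 had 12209 CPM, and the other 3 controls had 7277 to 8036 CPM, a gap past Dixon's 95% limit. It was the only one of 40 groups of 4 mice (10 genes in 4 groups) past it, and chance flags about 5% of groups.

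The CCl4 effect differed between mice with and without 4MU by 1.61 for F12 and by 1.32 for Serpinc1 on the log2 scale. Both passed in the test of the interaction itself. Both lost the call without CCl4 mouse 2, at 1.48 for F12 and 0.95 for Serpinc1.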

How the results depend on the processing

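The limits are 2 CCl4 mice, of which mouse 2 was lowest for F2, F7, F10, F12 and Serpinc1, and groups of 3 or 4. Of 721 alternative values of the named fold changes, 663 kept their direction and their side of the threshold, 39 lost the call, 18 gained one, and 1 turned, Fgb in the averaged CCl4 effect with library totals alone (0.084). F2, F7 and Serpinc1 kept their call in the averaged effect under every alternative tried except the limit on fold size.

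The number of the 10 members called changed as follows, with the number of all genes called in either direction in brackets. For CCl4 + siLuc-LNP against siLuc-LNP it was 1, and became 2 with DESeq2 (3727) and 3 with library totals (3168). It became 0 without a low-count filter (3485), with only the compared groups (1518) or with a log2 fold change of at least 1 (1644). It was also 0 without the 3 doubted libraries (1935), which are the smallest and the 2 that correlated least. For CCl4 + siHAS2-LNP against siHAS2-LNP it was 0 (1812), and became 2 with DESeq2 (2190), only the compared groups (2309) or without the 3 libraries (2068). It became 1 with DESeq2's size factors (1818) or filterByExpr (1899). For CCl4 + siLuc-LNP against CCl4 it was 0 (35), and became 1 with DESeq2 (289) and 2 without the 3 libraries (1198). For CCl4 + 4MU against CCl4 + siHAS2-LNP it was 0 (172), and became 1 with DESeq2 (505) or without the 3 libraries (223). For CCl4 + siHAS2-LNP against CCl4 it was 2, and became 1 with library totals (2050), no filter (2094), filterByExpr (2093) or only the compared groups (1631). With the fold limit it was 0 (1059). For CCl4 + 4MU against CCl4 it was 4, and became 2 with only the compared groups (2037) or the fold limit (1139). With the fold limit, CCl4 against control kept 2 of 4 (2637) and the averaged effect 0 of 6 (1569). Apart from fewer samples in the fit and the fold limit, the cause was not tested.

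With each mouse left out in turn, the number called was 5 to 7 for the averaged effect, 2 to 5 for CCl4 against control, 0 to 5 for CCl4 + 4MU against CCl4 and for the interaction of 4MU, 0 to 2 for CCl4 + siHAS2-LNP and for CCl4 + siLuc-LNP against CCl4, 0 to 3 for CCl4 + siLuc-LNP against siLuc-LNP, and 0 to 1 for CCl4 + 4MU against 4MU and against CCl4 + siHAS2-LNP. A group left with 1 mouse was assumed to vary like the others. The number of all genes called moved as well, so nothing about the members is read from these ranges. For CCl4 + siLuc-LNP against siLuc-LNP it was 2641 without siLuc-LNP mouse 2, with 0 members called. It was 3707 without CCl4 + siLuc-LNP mouse 3, with 3 members called. For CCl4 + siLuc-LNP against CCl4 it went from 35 to 1076 without CCl4 + siLuc-LNP mouse 4.

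Replicate numbers did not pair the mice (83 pairs of equal number, r of -0.367 to 0.39, 18 over 0.1). With the replicate number as a block, CCl4 + siHAS2-LNP against CCl4 called 1 member in place of 2, with 1822 genes called over all. The averaged effect called 6, and every other count stayed within 1.5 times.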
